A study of Homo sapiens with 3 samples.

Results

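The genes described here carry out protein folding in the endoplasmic reticulum and the unfolded-protein response. They were taken by symbol from a list of 43 genes grouped by function, drawn up with earlier results of these data known, and all 43 were matched to identifiers among the 22827 genes of the deposited count table. Of these, 41 had reads in at least 1 library and at least 10 reads in 1 or more libraries, and ATF6B and MANF had no read in any library. The cells were Hep3B, an established human hepatocellular carcinoma line, sequenced as 3 bulk RNA libraries: 1 labelled control, 1 labelled USP39-KO and 1 labelled SIRT7-KO. USP39 encodes a spliceosome protein of the ubiquitin-specific protease family, and SIRT7 encodes a sirtuin deacylase of the nucleolus. The sources used here do not give how the knockouts were made, whether each is 1 clone or a pool, or any treatment or culture time. Because each group is 1 library, no difference could be checked against replicates or tested, and the intervals below cover counting error only.

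Per library, 16151522 to 19427940 reads were counted on genes, and 14361 to 14711 genes had reads. Throughout, values are listed in the order control, USP39-KO, SIRT7-KO. USP39 had 1829, 1066 and 1511 reads, a log2 ratio of -0.54 (95% interval -0.65 to -0.43) for the USP39-KO library against control. SIRT7 had 984, 808 and 608 reads, a log2 ratio of -0.44 (95% interval -0.59 to -0.30) for the SIRT7-KO library against control. Each targeted gene was lower in the library named for it but kept most of its reads, and a read count does not show whether a protein was made. The labelled hepatic cell type was checked against 14 hepatocyte markers: 8 of them, ALB and AFP among them, had no read in any library, and the summed level was 9.21, 2.07 and 0.674 CPM, read counts scaled to a common library size. The 5 epithelial markers summed to 2069, 1587 and 1718 CPM, the 8 fibroblast markers to 118, 140 and 115 CPM, the 6 leukocyte markers to 3.81, 3.83 and 4.78 CPM and the 5 endothelial markers to 1.13, 0.729 and 0.919 CPM. The counts therefore do not show the labelled hepatic type by its defining markers, though a listed 0 is not proof of absence in this table. Sums hide single markers. Of the 4 fibroblast markers with at least 10 reads in a library, 1 was more than 2-fold higher and 0 lower in each knockout library against control. Of all genes with as many reads, 4.86% in USP39-KO and 7.06% in SIRT7-KO passed 2-fold in either direction. Of 4 such epithelial markers, 2 were more than 2-fold lower and 0 higher in SIRT7-KO. In USP39-KO 0 of them passed 2-fold and 1 was at least 1.3-fold lower, beside 9.75% of all genes. Marker levels, hepatocyte, epithelial and fibroblast among them, thus differed between the libraries, and their part in the results below was not tested. In bulk RNA, fewer cells of a type and less RNA per cell cannot be told apart.

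Secreted and membrane proteins enter the endoplasmic reticulum unfolded, where chaperones hold them, oxidoreductases form their disulfide bonds, and degradation machinery pulls out those that fail to fold. Sensors in the membrane, IRE1 (gene ERN1), PERK (gene EIF2AK3) and ATF6, respond when unfolded protein accumulates: IRE1 splices the XBP1 mRNA, PERK slows translation by phosphorylating eIF2, and ATF6 is cut to release a transcription factor. Hepatocytes secrete large amounts of plasma protein and depend on this machinery. The mRNA levels reported here measure none of these activities directly: gene counts do not separate spliced from unspliced XBP1, and phosphorylation and cleavage leave no trace in them.

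Levels between genes were compared only by the deposited FPKM, reads per kilobase of gene length scaled to the library total. Levels between libraries were compared as CPM, with library sizes scaled by the trimmed mean of M values (TMM), and expressed as log2 ratios with an exact binomial 95% interval from the counts. The words higher and lower are used of genes whose ratio was at least 1.3-fold with an interval that left out 1, unless a smaller ratio is given beside them. A stricter count used 2-fold.

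By FPKM the members spanned a wide range of abundance, and the order was led by chaperones. HSPA5 (BiP, the central HSP70 chaperone of the organelle) stood first in all 3 libraries with FPKM of 374, 370.4 and 526. CALR (calreticulin, 330.0, 297 and 413 FPKM) and CANX (calnexin, 318, 314 and 315 FPKM), the lectin chaperones of glycoproteins, and HSP90B1 (GRP94, the organelle's HSP90, 255, 264 and 329.6 FPKM) took the next places in every library, in changing order. The most abundant oxidoreductase was PDIA3 (141, 164 and 150.2 FPKM), which partners with the lectin chaperones, and the most abundant degradation gene was VCP (68.7, 68.4 and 63.6 FPKM), the ATPase that extracts proteins from the membrane. Sensors were low by comparison, with FPKM of 15.7, 15.3 and 16.6 for ATF6, 4.10, 4.91 and 5.69 for EIF2AK3 and 2.59, 3.90 and 1.54 for ERN1. CLGN (calmegin, a testis relative of calnexin), HYOU1 (an HSP110-type chaperone) and ERO1B (a tissue-restricted oxidase) had FPKM under 1 in each library. CLGN and HYOU1, like CANX, HSP90B1 and ERO1B, fall outside the rule for named genes and were picked out after their values were seen.

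**Figure D1:**
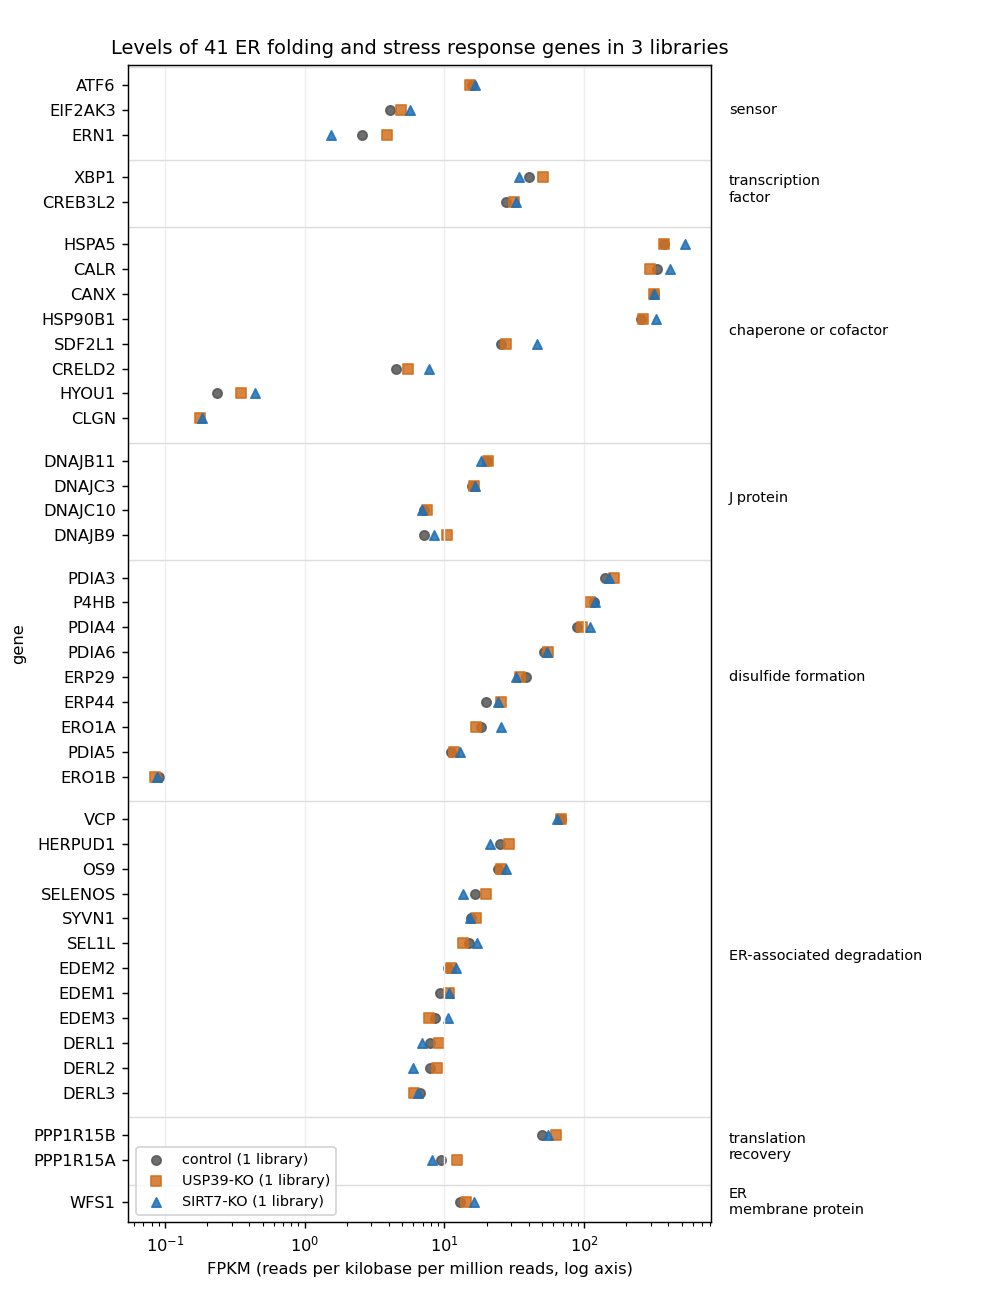
Levels of the 41 members with reads, in FPKM on a log axis, grouped by role; each symbol is 1 library. HSPA5, CALR, CANX and HSP90B1 lie at the right in all 3 libraries, between 255 and 526 FPKM, and the control value of CLGN, 0, is not drawn.

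In the USP39-KO library, few members differed from control by 1.3-fold. ERN1, the J protein DNAJB9, the phosphatase subunit PPP1R15A and CLGN were higher, and no member was lower. That is 4 of 41 higher, or 9.76%, beside 6.13% of all 12726 genes kept by the read filter, and 0 lower beside 9.75% of all genes. CLGN alone passed 2-fold in either direction, which 4.86% of all genes did. The 37 others lay within 1.3-fold or had an interval that held 1. CLGN had no control read and passed the read filter only through the knockout libraries. Among the 38 members with at least 100 reads in a library, 3 (7.89%) were higher, beside 5.50% of all such genes. The median log2 ratio of the 41 members was 0.13, with a range of -0.14 to 4.64, and the median of all genes was -0.00. The interval lay above 0 for 23 members (56.1%) and below 0 for 5 (12.2%), beside 22.0% and 22.5% of all genes. In SIRT7-KO against control the shares of members were 56.1% above and 26.8% below, beside 27.3% and 28.8% of all genes. For SIRT7-KO against USP39-KO they were 26.8% above and 41.5% below, beside 29.2% and 29.8%. Intervals narrow with read number, so these shares also depend on how many reads the genes had.

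In the SIRT7-KO library the chaperone HSPA5 and its partner SDF2L1 were among the members higher than in control, and ERN1 and DERL2 were lower. The members at least 1.3-fold higher were HSPA5, SDF2L1, CRELD2, HYOU1, CLGN, ERO1A and EIF2AK3. That is 7 of 41, or 17.1%, beside 12.7% of all genes, and the 2 lower members, 4.88%, stand beside 12.7% of all genes. Only CLGN passed 2-fold, beside 7.06% of all genes in either direction. Among the 38 members with at least 100 reads in a library, which leaves CLGN and HYOU1 out, 5 (13.2%) were higher, beside 12.1% of all such genes. The median log2 ratio of the 41 members was 0.12, with a range of -0.76 to 4.65, against -0.01 for all genes. Both knockout libraries were compared with the same control library, so the 2 comparisons are not independent. The shares higher lay near those of all genes, and the shares lower were smaller than those of all genes on counts of 0 and 2 members, so these counts do not set the members apart.

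The direct comparison of the SIRT7-KO with the USP39-KO library does not use the control. HSPA5, SDF2L1, CALR, CRELD2, ERO1A and EDEM3 were higher in SIRT7-KO, and ERN1, XBP1, HERPUD1, DERL1, DERL2, SELENOS and PPP1R15A were lower. That is 6 of 41 higher, 14.6%, beside 16.3% of all genes, and 7 lower, 17.1%, beside 14.3% of all genes. ERN1 was the 1 member past 2-fold, a difference shown by 8.54% of all genes in either direction. The median of the members, 0.01, was close to that of all genes, -0.00, with a range of -1.37 to 0.71.

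**Figure D2:**
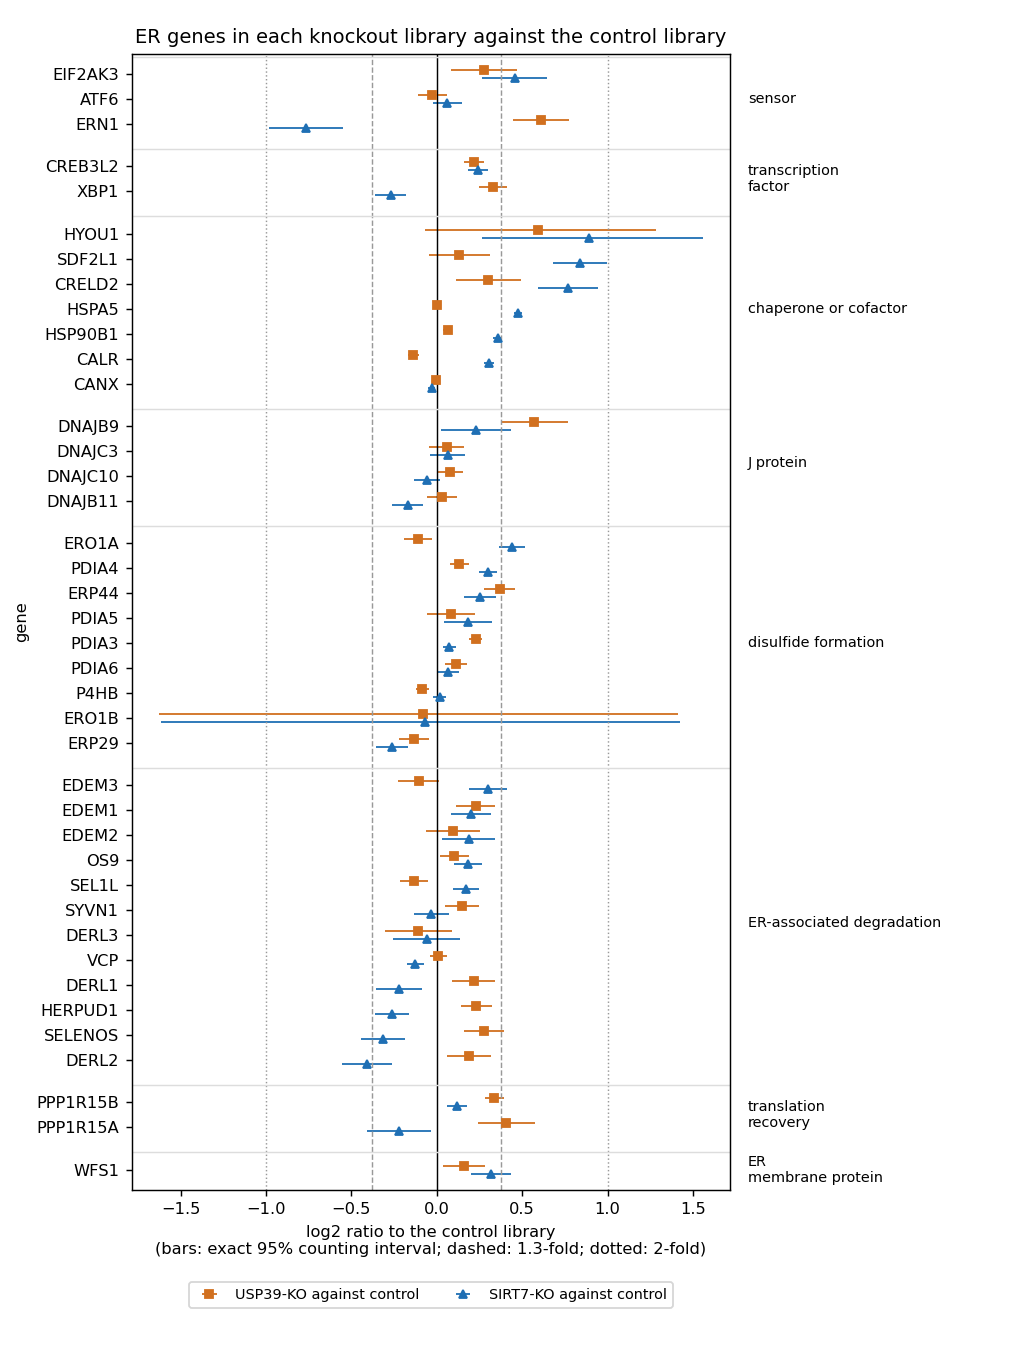
Log2 ratio of each knockout library to control for 40 members, with 95% counting intervals; dashed lines mark 1.3-fold, dotted lines mark 2-fold, and CLGN, with 0 control reads, is left out. ERN1 lies at 0.61 in USP39-KO and at -0.76 in SIRT7-KO, and HSPA5 at 0.00 and 0.48.

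Weighted by reads, the members took 1.02%, 1.04% and 1.16% of all reads in the 3 libraries. Their summed reads were 197605, 173346 and 187475, a log2 ratio of 0.05 (95% interval 0.04 to 0.06) in USP39-KO and 0.18 (0.17 to 0.18) in SIRT7-KO against control. Chaperones made up most of the sum, with 0.559%, 0.551% and 0.678% of all reads. HSPA5 alone held 0.146%, 0.145% and 0.206% of reads. The larger sum of the SIRT7-KO library thus sat mostly with the chaperones, whose summed log2 ratio was 0.26 (0.25 to 0.28) there and -0.01 (-0.02 to 0.01) in USP39-KO.

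Among the sensors, ERN1 (chr17:64039142-64130819, minus strand, GENCODE 29), the kinase and endoribonuclease that splices XBP1 mRNA, differed most between the libraries. It had 546, 705 and 270 reads, or 28.1, 42.8 and 16.5 CPM, highest in USP39-KO and lowest in SIRT7-KO. Its log2 ratio to control was 0.61 (95% interval 0.44 to 0.77) in USP39-KO, a fold of 1.52, and -0.76 (95% interval -0.98 to -0.55) in SIRT7-KO, where it was 1.70 times lower (1.47 to 1.97). Between the knockout libraries directly it was 2.59 times lower (2.25 to 2.99) in SIRT7-KO.

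EIF2AK3 (chr2:88556741-88627576, minus strand), the kinase PERK, had 433, 444 and 499 reads, or 22.3, 27.0 and 30.6 CPM, with the highest scaled level in SIRT7-KO. The ratio to control was 0.46 (95% interval 0.27 to 0.65) in SIRT7-KO and 0.28 (95% interval 0.08 to 0.47) in USP39-KO, the second under 1.3-fold. The interval between the knockout libraries held 0, at 0.18 (95% interval -0.01 to 0.37). An antisense gene overlaps 14.4% of the exon bases of EIF2AK3, and the sources used here do not say whether counting used strand. The FPKM of ERN1 relative to EIF2AK3 was 0.631, 0.794 and 0.271.

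ATF6 (chr1:161766294-161964070, plus strand), the membrane-bound transcription factor, had 2412, 2008 and 2115 reads, or 124, 122 and 129.6 CPM. Its log2 ratios to control were -0.03 (95% interval -0.11 to 0.06) in USP39-KO and 0.06 (95% interval -0.02 to 0.15) in SIRT7-KO, and both intervals held 0. The mRNA of its relative ATF6B (chr6:32115264-32128253, minus strand) was listed at 0 in all 3 libraries. A value of 0 does not show absence here: the ribosomal protein genes RPL7A and RPS18, which every cell uses, were also listed at 0. Around ATF6B, 19 of 26 protein-coding genes within 250 kb had no read in any library, beside 23.1% of 19130 protein-coding genes in all. MANF (chr3:51385047-51389397, plus strand), a secreted factor of the stress response, was also at 0. Of the 4 protein-coding genes within 250 kb of it, RAD54L2 had 659, 560 and 436 reads, and the others had few: DOCK3 21, 21 and 14, RBM15B 3, 5 and 7, and DCAF1 0, 2 and 1.

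XBP1 (chr22:28794555-28800597, minus strand), the transcription factor whose mRNA IRE1 splices, followed the order of ERN1. It had 2389, 2541 and 1665 reads, or 123, 154 and 102 CPM, highest in USP39-KO and lowest in SIRT7-KO. Against control the log2 ratio was 0.33 (95% interval 0.25 to 0.41) in USP39-KO and -0.27 (95% interval -0.36 to -0.18) in SIRT7-KO, both under 1.3-fold. The knockout libraries differed by -0.60 (95% interval -0.69 to -0.51), with XBP1 1.51 times lower (1.42 to 1.61) in SIRT7-KO. CREB3L2, an ATF6-like factor cut in the same way, had 4673, 4598 and 4641 reads, with ratios of 0.22 and 0.24 to control.

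Of the 8 chaperones and cofactors with reads, 5 were at least 1.3-fold higher in SIRT7-KO than in control, and 1, CLGN, in USP39-KO, beside 12.7% and 6.13% of all genes. The role's median log2 ratio was 0.62 in SIRT7-KO and 0.10 in USP39-KO. CLGN passed the read filter only through the knockout libraries, and HYOU1 had few reads. Among the 6 chaperones with at least 100 reads in a library, a limit set after the values were seen, 3 were higher in SIRT7-KO (HSPA5, SDF2L1 and CRELD2) and 0 in USP39-KO, with medians of 0.42 and 0.03. HSPA5 (chr9:125234853-125241330, minus strand) gave 28386, 24073 and 33209 reads, or 1461, 1463 and 2035 CPM. The control and USP39-KO levels were within counting error of each other, at 0.00 (95% interval -0.02 to 0.03), and the SIRT7-KO level was higher by 0.48 (95% interval 0.46 to 0.50), a fold of 1.39. The small BiP partner SDF2L1 (chr22:21642261-21644298, plus strand) had 539, 500 and 810 reads, or 27.7, 30.4 and 49.6 CPM. It was higher in SIRT7-KO by 0.84 (95% interval 0.68 to 1.00), a fold of 1.79, and its USP39-KO interval held 0, at 0.13 (95% interval -0.05 to 0.31).

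CRELD2 (chr22:49918167-49927540, plus strand), a stress-induced secreted oxidoreductase-like protein, had 449, 469 and 642 reads, or 23.1, 28.5 and 39.3 CPM. Its ratio was 0.77 (95% interval 0.59 to 0.94) in SIRT7-KO and 0.30 (95% interval 0.11 to 0.49) in USP39-KO. CALR (chr19:12938578-12944489, plus strand) had 17398, 13394 and 18085 reads, or 895, 814 and 1108 CPM, lowest in USP39-KO and highest in SIRT7-KO. Neither ratio to control reached 1.3-fold, at -0.14 (95% interval -0.17 to -0.11) and 0.31 (95% interval 0.28 to 0.34), but the knockout libraries differed by 0.45 (95% interval 0.41 to 0.48). CANX, the membrane-bound lectin that shares clients with CALR, had 38562, 32594 and 31707 reads and ratios of -0.00 and -0.03, so the FPKM of CALR relative to CANX was 1.04, 0.944 and 1.31.

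HSP90B1 had 23197, 20544 and 24956 reads and a SIRT7-KO ratio of 0.36 (95% interval 0.33 to 0.38), 1.28-fold and just under the 1.3-fold limit. HYOU1 rested on few reads, 35, 45 and 55, and its SIRT7-KO ratio of 0.89 (95% interval 0.27 to 1.56) was correspondingly imprecise. Its USP39-KO ratio was 0.59 (95% interval -0.07 to 1.28). Between the knockout libraries it was 0.30 (95% interval -0.29 to 0.90), and both of these intervals held 0. CLGN had 0, 11 and 11 reads. A count of 0 allows up to 3 reads, and against that limit its ratio was 4.33-fold in USP39-KO and 4.37-fold in SIRT7-KO. These 2 ratios take the 11 reads as exact. The exact 95% intervals, which cover the error of both counts, began lower, at 2.96-fold and 2.99-fold. With CLGN at 4.33-fold and 4.37-fold, the members' medians stayed at 0.13 and 0.12.

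Many promoters of these genes share a sequence element. The ER stress response element (ERSE), bound by NF-Y and ATF6, was defined in chaperone promoters, and ERSE-II in that of the gene HERPUD1. RefSeq promoter windows (GRCh38.p14, 250 bases before to 50 after a start) existed for 40 of the 43 members. They were searched on both strands for ERSE, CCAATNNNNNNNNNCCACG, and ERSE-II, ATTGGNCCACG. ERSE was found in 8 members (HSPA5, HSP90B1, CALR, CANX, CRELD2, PDIA6, XBP1 and ERO1B). It was found in 0.0916% of all 27305 genes with a window, and in 0.0769% of all 35116 windows. ERSE-II was found in 3 (HERPUD1, SDF2L1 and HYOU1), in 0.0696% of all genes with a window and in 0.0541% of all windows. The matched stretches of the members discussed here are shown 5′ to 3′ on the strand that reads as the motif, with its fixed bases in capitals, because the fixed bases are shared and the spacers and flanks are not.
HSPA5: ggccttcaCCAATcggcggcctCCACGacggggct
HSP90B1, first: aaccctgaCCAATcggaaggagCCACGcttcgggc
HSP90B1, second: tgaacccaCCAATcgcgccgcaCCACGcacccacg
CALR: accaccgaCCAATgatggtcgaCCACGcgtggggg
CANX: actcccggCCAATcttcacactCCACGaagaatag
CRELD2: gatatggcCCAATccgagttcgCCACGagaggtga
XBP1: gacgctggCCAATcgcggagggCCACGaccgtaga
HERPUD1: ggacgccgATTGGgCCACGttgggaga
SDF2L1: gggttttgATTGGtCCACGcttccgag
HYOU1, nearer the start: gcgtactcATTGGaCCACGtcccaggc

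The ERSE of HSPA5 lies at chr9:125241391-125241409 on the minus strand, 66 to 48 bases before the RefSeq start. It is shown within the 250 bases before that start (GRCh38.p14, chr9:125241344-125241593, minus strand), the promoter of the most abundant member, with the same bases in capitals.
HSPA5 promoter: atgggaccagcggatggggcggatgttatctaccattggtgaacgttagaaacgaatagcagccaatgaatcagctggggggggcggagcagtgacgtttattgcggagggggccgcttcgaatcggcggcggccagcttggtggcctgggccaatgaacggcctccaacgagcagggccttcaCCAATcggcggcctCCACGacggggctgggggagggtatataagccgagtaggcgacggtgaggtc

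The 11 members with either element did not share 1 direction. In SIRT7-KO against control, 4 of the 11 were at least 1.3-fold higher and 0 lower, beside 12.7% of all genes each way, with a median log2 ratio of 0.31. HSPA5, SDF2L1, CRELD2 and HYOU1 were those 4, while the intervals of XBP1, HERPUD1 and CANX lay below 0. The 27 members with a window, reads and neither element had 3 higher, 2 lower and a median of 0.17. In USP39-KO against control 0 of the 11 were higher or lower, and the medians were 0.11 with and 0.13 without. HYOU1 stood at 1.51-fold there, but its interval held 1. Of the 27 without, 4 were higher and 0 lower, beside 6.13% and 9.75% of all genes. Between the knockout libraries directly, 4 of 11 were higher and 2 lower in SIRT7-KO, beside 16.3% and 14.3% of all genes. The 27 without had 2 higher and 4 lower. The medians were 0.29 with and 0.01 without. The search also covered UPRE (TGACGTGG), found in DNAJC10, HYOU1 and VCP and in 0.927% of all genes with a window. The ATF4 element CARE (TGATGNAAN) was found in CREB3L2, HERPUD1 and PPP1R15B and in 4.45% of such genes. The 8-base UPRE of HYOU1 overlaps an ERSE-II on the opposite strand. A match in these letters is a description and does not show binding.

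**Figure D3:**
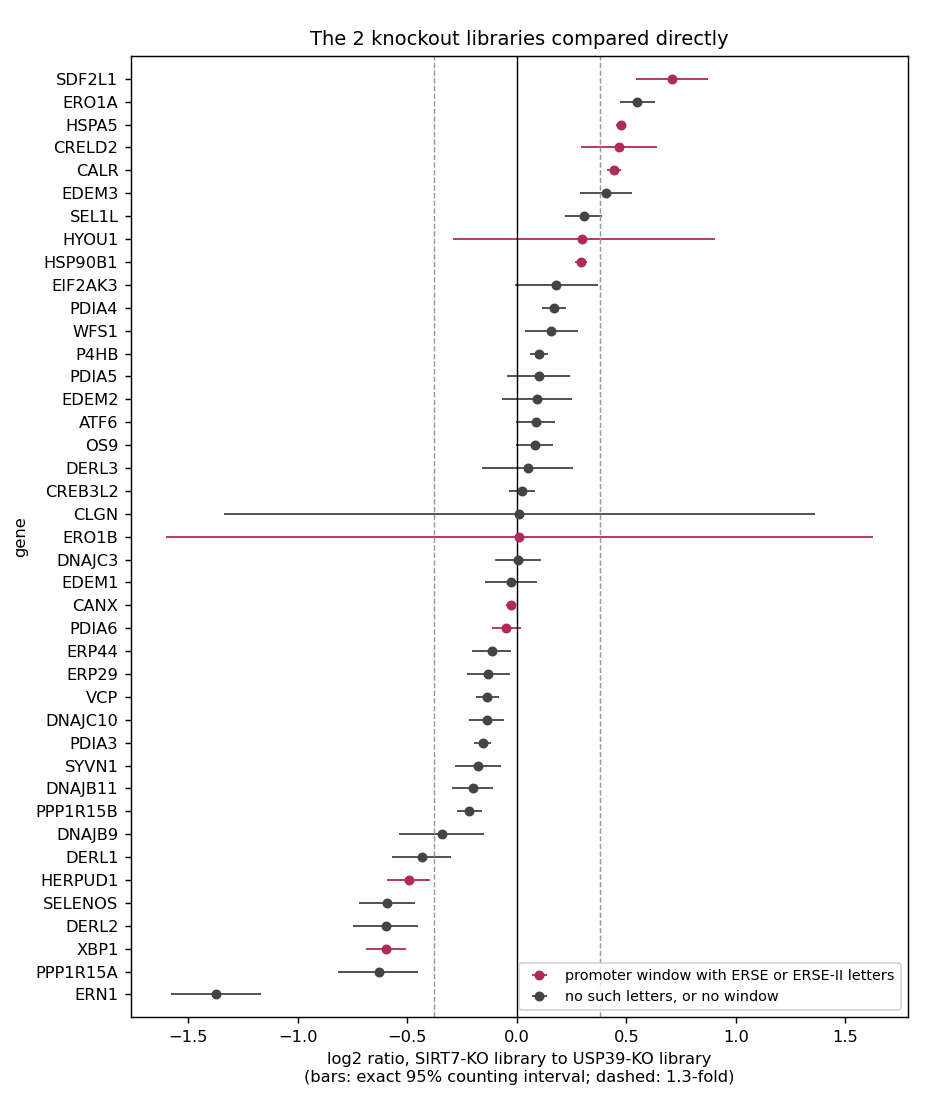
Log2 ratio of SIRT7-KO to USP39-KO for the 41 members with reads, with 95% counting intervals, coloured by whether the promoter window held an ERSE or ERSE-II. SDF2L1 (0.71) is the highest and ERN1 (-1.37) the lowest, and members with the element lie on both sides of 0.

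J proteins deliver clients to BiP and start its ATP cycle. DNAJB9 (chr7:108569568-108574850, plus strand), which also holds IRE1 inactive with BiP, had 393, 495 and 387 reads, or 20.2, 30.1 and 23.7 CPM, highest in USP39-KO. Its ratio was 0.57 (95% interval 0.38 to 0.77) there, a fold of 1.49, and 0.23 (95% interval 0.02 to 0.44) in SIRT7-KO. Exons of THAP5 overlap 6.45% of its exon bases on the opposite strand. DNAJB11 (chr3:186567403-186585800, plus strand), the most abundant J protein, had 2369, 2051 and 1768 reads with ratios of 0.03 and -0.17, and DNAJC3 and DNAJC10 lay between -0.06 and 0.08 in both comparisons with control.

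Of the 9 genes of disulfide formation, 1 was at least 1.3-fold higher and 0 lower in SIRT7-KO, beside 12.7% of all genes each way. In USP39-KO 0 passed, beside 6.13% of all genes higher and 9.75% lower. The role's medians were 0.07 in SIRT7-KO and 0.08 in USP39-KO. The 1 gene past the limit was ERO1A (chr14:52639916-52695900, minus strand), the oxidase that recharges protein disulfide isomerase. It had 2700, 2119 and 3076 reads, or 139, 129 and 188 CPM, highest in SIRT7-KO and lowest in USP39-KO. The SIRT7-KO ratio to control was 0.44 (95% interval 0.36 to 0.51), 1.36-fold, the USP39-KO ratio was -0.11 (95% interval -0.19 to -0.03), and the knockout libraries differed by 0.55 (95% interval 0.47 to 0.63). Its paralog ERO1B had only 10, 8 and 8 reads. PDIA3 (chr15:43746392-43773279, plus strand) had 11638, 11549 and 10284 reads and ratios of 0.23 and 0.07. ERP44, which retains ERO1 proteins in the early secretory pathway, came nearest the limit in USP39-KO, at 1.29-fold. The remaining genes of this role (P4HB, PDIA4, PDIA5, PDIA6 and ERP29) lay between -0.26 and 0.30 in both comparisons.

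Of the 12 degradation genes, 4 were lower and 1 higher in the direct comparison and 7 passed neither way, beside 14.3% and 16.3% of all genes. HERPUD1, DERL1, DERL2 and SELENOS, membrane proteins of the retrotranslocation complexes, were lower in SIRT7-KO than in USP39-KO, and EDEM3, a mannosidase-like protein that marks glycoproteins for disposal, was higher. The role's medians were 0.12 in USP39-KO and -0.05 in SIRT7-KO against control, and -0.08 directly. DERL2 (chr17:5471251-5486811, minus strand) gave 977, 943 and 618 reads, or 50.3, 57.3 and 37.9 CPM, lowest in SIRT7-KO. It was the 1 degradation gene past 1.3-fold against control, at -0.41 (95% interval -0.56 to -0.26) in SIRT7-KO, and stood at 0.19 (95% interval 0.06 to 0.32) in USP39-KO.

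SELENOS (chr15:101270817-101277500, minus strand), a selenoprotein that recruits VCP, had 1218, 1250 and 822 reads, or 62.7, 75.9 and 50.4 CPM, with a direct ratio of -0.59 (95% interval -0.72 to -0.46). HERPUD1 (chr16:56932048-56944863, plus strand), a scaffold of the ligase complex, had 2029, 2019 and 1422 reads, or 104, 123 and 87.1 CPM, with a direct ratio of -0.49 (95% interval -0.59 to -0.39). DERL1, a channel protein related to DERL2, had 1086, 1068 and 784 reads, or 55.9, 64.9 and 48.0 CPM, with a direct ratio of -0.43 (95% interval -0.57 to -0.30). Each of the 3 had its highest scaled level in USP39-KO and its lowest in SIRT7-KO, with neither ratio to control reaching 1.3-fold. EDEM3 (chr1:184690231-184754913, minus strand) gave 1289, 1014 and 1333 reads, or 66.3, 61.6 and 81.7 CPM, and the opposite order, with a direct ratio of 0.41 (95% interval 0.29 to 0.53).

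The ligase SYVN1 and its partner SEL1L did not pass the limit in any of the 3 comparisons, nor did the lectin OS9, EDEM1, EDEM2, DERL3 or VCP. SEL1L came closest, with 2787, 2154 and 2638 reads and a direct ratio of 0.30 (95% interval 0.22 to 0.39). VCP (chr9:35056064-35073249, minus strand) had 7257, 6188 and 5585 reads and ratios of 0.01 and -0.13 to control. Of the exon bases of DERL3, 77.0% overlap SMARCB1 on the opposite strand, so its 490, 385 and 395 reads are uncertain.

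PPP1R15A (GADD34, chr19:48872392-48876057, plus strand) and PPP1R15B (CReP, chr1:204403387-204411791, minus strand) direct the phosphatase that reverses eIF2 phosphorylation, the first induced by stress and the second constitutive. PPP1R15A had 564, 634 and 406 reads, or 29.03, 38.5 and 24.9 CPM, highest in USP39-KO and lowest in SIRT7-KO. It was higher than control in USP39-KO by 0.41 (95% interval 0.24 to 0.57), 1.33-fold, stood at -0.22 (95% interval -0.41 to -0.04) in SIRT7-KO, and differed by -0.63 (95% interval -0.81 to -0.45) directly. PPP1R15B had 5088, 5439 and 4641 reads and ratios of 0.34 and 0.12. By FPKM it exceeded PPP1R15A 5.34, 5.08 and 6.76 times. WFS1 (chr4:6269849-6303265, plus strand), a membrane protein of the organelle whose loss causes Wolfram syndrome, had 1131, 1070 and 1184 reads and ratios of 0.16 and 0.32.

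The members were also sorted by the arm known to induce them. Of 8 ATF6 arm targets with reads, 3 were at least 1.3-fold higher and 0 lower in SIRT7-KO against control, with a median of 0.33. In USP39-KO 0 were higher or lower, with a median of 0.10. HYOU1, with few reads, is 1 of those 3. Directly, 3 ATF6 arm targets were higher in SIRT7-KO than in USP39-KO and 1, HERPUD1, was lower, beside 16.3% and 14.3% of all genes. Of 5 IRE1-XBP1 arm targets, 1 (DERL2) was lower in SIRT7-KO, with a median of 0.06, and 1 (DNAJB9) was higher in USP39-KO, with a median of 0.19. The shares over all genes were 12.7% each way for SIRT7-KO, and for USP39-KO 6.13% on the higher and 9.75% on the lower side, so counts of 1 to 3 in groups this small set no arm apart. The 2 PERK arm targets among the members, ERO1A and PPP1R15A, differed between the knockout libraries in opposite directions. Many of these genes answer to more than 1 arm, and the grouping is a convention.

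Beyond the members, 115 of 123 other genes of the pathway passed the read filter. In USP39-KO 8 (6.96%) were at least 1.3-fold higher and 5 (4.35%) lower, beside 6.13% and 9.75% of all genes, with a median of 0.06. In SIRT7-KO 8 (6.96%) were higher and 15 (13.0%) lower, beside 12.7% and 12.7%, also with a median of 0.06. The counts that follow for single lists are to be read against the same shares of all genes. The 12 outputs of PERK, ATF4 and CHOP held 6 of those 15, beside 12.7% of all genes lower, with 1 higher (DDIT4) and a median of -0.42. In USP39-KO 4 of the 12 were higher, beside 6.13% of all genes, and 0 lower, with a median of 0.18. CHAC1, which degrades glutathione, had 730, 633 and 124 reads and a SIRT7-KO ratio of -2.30 (95% interval -2.59 to -2.03). ASNS, asparagine synthetase, had 3693, 4480 and 970 reads, with ratios of 0.52 (95% interval 0.45 to 0.58) in USP39-KO and -1.68 (95% interval -1.78 to -1.57) in SIRT7-KO. NUPR1, a stress-induced chromatin protein, had 1851, 2311 and 922 reads and ratios of 0.56 and -0.75. ATF4 itself had 7112, 6741 and 5532 reads and ratios of 0.16 and -0.11, and DDIT3, which encodes CHOP, had 88, 102 and 81 reads. These outputs also answer to amino acid supply and other stresses that reach ATF4.

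The 11 genes of glycan trimming and quality control had 0 higher and 2 lower in USP39-KO, with a median of -0.12. The 2 were FBXO6 and FBXO2, ubiquitin ligase subunits that bind glycans, with 117, 42 and 103 and 467, 204 and 514 reads and ratios of -1.23 and -0.95. In SIRT7-KO 2 of the 11 were higher, LMAN1 (0.57), a cargo lectin of the early secretory pathway, and FBXO2 (0.39). All 11 had a higher scaled level in SIRT7-KO than in USP39-KO, as did 6316 of all 12726 genes. By at least 1.3-fold, 4 of the 11 were higher and 0 lower, beside 16.3% and 14.3% of all genes. In the same comparison the 22 translocation and signal peptidase genes had 1 higher and 5 lower.

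Of 22 translocation and signal peptidase genes, 1 was higher in USP39-KO (SEC61B, 0.43) and, in SIRT7-KO, 1 was higher (SSR2, 0.49) and 1 lower (SRPRB, -0.39). The 10 oligosaccharyltransferase genes had 1 higher in each library, TUSC3 in USP39-KO (0.55) and KRTCAP2 in SIRT7-KO (0.74). Of 19 other disulfide and proline enzymes, 1 was higher (TMX4, 0.38) and 2 lower in USP39-KO, TXNDC5 (-1.32, from 122, 41 and 46 reads) and QSOX1 (-0.42). In SIRT7-KO 2 were higher, FKBP7 (0.58) and FKBP14 (0.51), and 2 lower, TXNDC5 (-1.15) and TMX2 (-0.54). Of 9 other chaperone cofactors, DNAJC1 (-0.84) and DNAJB12 (-0.39) were lower in SIRT7-KO and 0 passed in USP39-KO. None of 13 other degradation genes passed 1.3-fold in either library. Of 13 factors that process or resemble the sensors, 0 were higher or lower in USP39-KO. In SIRT7-KO 1 was higher (CREB3L4, 0.50) and 2 lower, NFE2L2 (-0.46) and, from 30, 17 and 11 reads, CREB3L3 (-1.16). The ER-phagy receptors RETREG1 and CALCOCO1, out of 6, passed in both: RETREG1 was higher in USP39-KO (0.54) and lower in SIRT7-KO (-0.59), and CALCOCO1 was lower in both (-0.54 and -0.41).

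**Figure D4:**
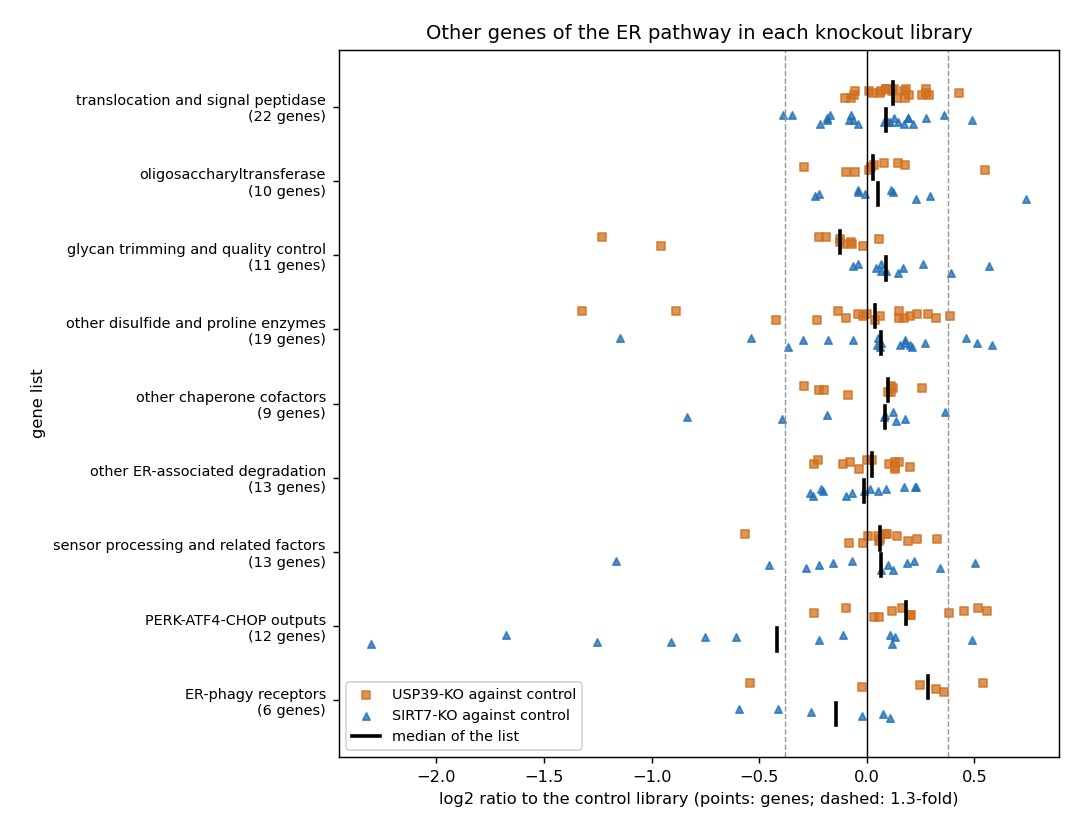
Log2 ratio of each knockout library to control for the 115 other pathway genes that passed the read filter, by list, with the median of each list marked. The list of PERK, ATF4 and CHOP outputs has medians of 0.18 in USP39-KO and -0.42 in SIRT7-KO and holds CHAC1 at -2.30.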

How the data were processed

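RNA was extracted with Trizol and sequenced from Illumina TruSeq libraries, per the labels' protocols. The sources used here do not give the aligner, counter, genome build or annotation. The authors deposited whole read counts per gene, not normalized, and FPKM, per the file headers. The deposited FPKM equalled counts divided by listed length and library total within 1e-06. Symbols were matched by Ensembl identifier (19581 of 22827), and coordinates come from GENCODE 29. The members and lists were chosen with earlier results of these data known.

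From the counts, TMM factors (edgeR 4.0.16) gave CPM. Log2 ratios used a prior of 0.5 counts, and 95% intervals were exact conditional binomial (Clopper-Pearson). Reads are not independent molecules, so intervals and the floor of 3 counts (0.154, 0.182 and 0.184 CPM) cover counting error only. The read filter required 10 counts in any library and kept 12726 genes. The scripts were tested on simulated data. DESeq2 1.42.0 size factors were 1 of 8 alternatives.

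Members named with values were the sensors, XBP1 and HSPA5, those at least 1.3-fold different in any comparison with at least 100 counts, the most abundant of each role, and those under 10 counts. Other genes were named as up to 2 per list with at least 100 counts. DDIT4, ATF4, DDIT3, other genes completing a count of called genes, and further members outside these rules were picked out after their values were seen. Promoters came from RefSeq (GRCh38.p14). Of the 40 members with a window, 39 had at least 1 window that ended in a GENCODE 29 transcript of the gene. Retrieval signals of the proteins were not analysed here. The treatment of reads with several placements, or from overlapping genes, is not stated either.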

Additional observations from a re-analysis of the deposited data

How the results depend on the processing

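No paired analysis was possible because each group has 1 library, and for the same reason no library could be left out. Of the main results recomputed under the alternatives, 92 values stayed the same and 7 moved. For single named genes 314 values stayed and 1 moved. No member past 1.3-fold that was recomputed singly changed sign, and HYOU1 and CLGN were not among those recomputed. Values near 0 did: HSPA5 in USP39-KO went from 0.00159 to -0.0135 by library total, -0.00255 by upper quartile and -0.00678 without the genes of the mitochondrial genome, VCP there from 0.00945 to -0.00561 by library total, and the members' median between the knockout libraries from 0.0115 to -0.0105 with at least 100 counts. The counts of members at least 1.3-fold higher or lower lay within 1.5 times the main count under every alternative run. Requiring at least 100 counts took CLGN out, so that 0 members passed 2-fold in either knockout library against control. The log2 ratio of the summed members in USP39-KO was 0.0353 when scaled by library total, against 0.0504. In SIRT7-KO it was 0.191 by library total and 0.185 by DESeq2 size factors, against 0.176. Between the knockout libraries it was 0.155 by library total and 0.135 without the genes of the mitochondrial genome, against 0.125, and HSPA5 stood at 0.51 by library total. Depth limits HYOU1, CLGN and ERO1B, whose reads number 0 to 55 per library.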

Other observations

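Outside the members, 26 genes of the count table, matched by symbol, hold an ERSE or ERSE-II in a RefSeq promoter window. Of these, 18 passed the read filter. In SIRT7-KO against control 4 were at least 1.3-fold higher and 0 lower, beside 12.7% of all genes each way. The median log2 ratio of the 18 was 0.14, and counts this small do not set them apart. The 4 higher were ZNF143 (0.92, from 502, 370 and 797 reads), RAD9A (0.52), NAV2 (0.41) and TRIM5 (0.40), chosen after their values were seen. In USP39-KO against control 1 was higher, TRIM5 (0.69), and 0 were lower, beside 6.13% and 9.75% of all genes, with a median of 0.07. FICD, the enzyme that modifies BiP with AMP, was among the 18 and had 106, 88 and 88 reads.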
